A study of Mus musculus with 18 samples.

Results

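The RNA polymerase I, II and III machinery was followed in a mouse medulloblastoma line after acute inhibition of the kinase complex mTORC1. It comprised 44 genes, chosen by symbol: every gene named as a subunit of polymerase I, II or III (Polr1, Polr2 and Polr3 followed by letters), the TFIIIC genes Gtf3c1 to Gtf3c6, and Ubtf, Rrn3, Taf1a to Taf1d, Brf1, Brf2, Bdp1 and Maf1. These 44 were among 15307 distinct expressed features of the count table, and all 44 passed the filter on low counts in each assay.

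GTML cells come from a mouse model in which human MYCN is expressed, through the GLT1 promoter and a TRE element, in hindbrain neural progenitors, and they were grown in serum-free medium with EGF and bFGF. All groups were of this 1 line, overexpressed human MYCN and were treated for 3 h. One group received 50 nM Rapalink-1, a bivalent compound that links rapamycin with a blocker of the ATP site of mTOR and inhibits signalling to both S6 kinase and the eIF4E-binding proteins. Another received 5 nM rapamycin, an allosteric inhibitor described in the series as blocking the S6 kinase arm and not the other, and the third received the solvent DMSO. Ribosome footprints and total RNA were sequenced from 3 samples per treatment, giving 18 libraries. The labels do not say whether replicates came from separate cultures, so p-values measure the spread between these samples. The 2 drug comparisons share the DMSO samples.

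RNA polymerase I makes the large ribosomal RNA precursor, polymerase II makes messenger RNA, and polymerase III makes transfer RNA, 5S ribosomal RNA and other small RNAs. Some subunits belong to 1 enzyme, a pair is common to polymerases I and III, and a small set is built into every enzyme. mTORC1 is known to promote polymerase I activity through the initiation factor Rrn3 and polymerase III activity by phosphorylating the repressor Maf1, and it controls the translation of mRNAs with a terminal oligopyrimidine (TOP) start.

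Footprint libraries held 7692625 to 14150068 counted reads and RNA libraries 6788365 to 13300292. The machinery took 0.336 to 0.436% of footprint reads and 0.377 to 0.428% of RNA reads. The scarcest member, Polr3gl, had 45 to 110 reads per footprint library. Mycn, the mouse row of the driver gene, stood at 997 to 1020 CPM of the library total in Rapalink-1, 640 to 671 in rapamycin and 661 to 716 in DMSO footprints. The progenitor markers with a row (6 of 8) were all detected, while Sox2 and Sox9 had no row and are not analysed here. Rows were looked up after those without any read had been dropped and others merged. A marker without a row may thus be absent from the counts, have no reads or be merged under another name. Among them Vim stood at 139 to 147 CPM in Rapalink-1, 289 to 300 in rapamycin and 304 in DMSO footprints, and its RNA at 221 to 230 CPM in Rapalink-1, 181 to 191 in rapamycin and 177 to 180 in DMSO. Zic2 stood at 161 to 179 footprint CPM in Rapalink-1, 99.3 to 113 in rapamycin and 84.0 to 90.1 in DMSO. Its RNA stood at 43.4 to 48.4 CPM in Rapalink-1, 36.3 to 42.5 in rapamycin and 42.7 to 50.3 in DMSO, with rapamycin below both other groups. Defining markers of oligodendrocytes (Mbp, Mog), microglia (Ptprc, Csf1r, Cx3cr1) and vascular cells (Pecam1, Cdh5) had no row, so they are not analysed here. The 2 microglia and blood markers that had a row, Itgam and Hbb-bs, summed to 26.0 to 29.0 CPM in Rapalink-1, 58.1 to 73.2 in rapamycin and 52.1 to 78.3 in DMSO footprints. In RNA the same sum was 98.8 to 109 CPM in Rapalink-1, 107 to 122 in rapamycin and 105 to 148 in DMSO. Of the other lists only Cnp (oligodendrocytes) and Acta2 (vascular cells and fibroblasts) had a row. Cnp stood at 14.6 to 17.8 CPM in Rapalink-1, 15.1 to 16.6 in rapamycin and 11.9 to 15.1 in DMSO footprints, and its RNA at 11.6 to 15.4 CPM over both drug groups and 7.7 to 10.6 in DMSO. Acta2 stood at 268 to 285 CPM in Rapalink-1, 233 to 264 in rapamycin and 259 to 297 in DMSO footprints, and its RNA values overlapped between groups. All marker CPM above are of the library total, without TMM scaling factors. In footprints those factors were 1.111 to 1.126 for Rapalink-1 and 0.9188 to 0.937 for DMSO. The part of these markers in the results was not tested. Fewer cells of a type and less RNA per cell cannot be told apart in bulk samples, and without a spike-in every change is relative to the other genes of a library.

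Rapalink-1 moved single members of the machinery strongly, in both directions, while the shares of members that moved in efficiency were near those of all genes. Translational efficiency is the change in footprints beyond the change in RNA. With Rapalink-1 it rose for 11 members and fell for 9 of 44, where 22.3% of the 10988 genes tested rose and 19.9% fell (edgeR quasi-likelihood test, Benjamini-Hochberg adjusted p under 0.05 over all genes). Those counts are 25 and 20.5% of the members, close to the background. Footprints rose for 10 members and fell for 15, or 22.7 and 34.1% of members, against 25.7 and 28% of all genes. RNA rose for 10 and fell for 13, or 22.7 and 29.5% of members, against 19.4 and 18.8% of all genes. The median log2 change of the members was 0.02 in efficiency, -0.08 in footprints and -0.03 in RNA, against 0.06, 0.01 and 0.00 over all genes. With library totals in place of TMM scaling factors, the median efficiency change of all genes moved to 0.43 and the members' split to 31 higher and 4 lower. On that scaling footprints split into 23 higher and 8 lower, and RNA into 4 higher and 21 lower, so directions below are relative to the typical gene.

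**Figure D1:**
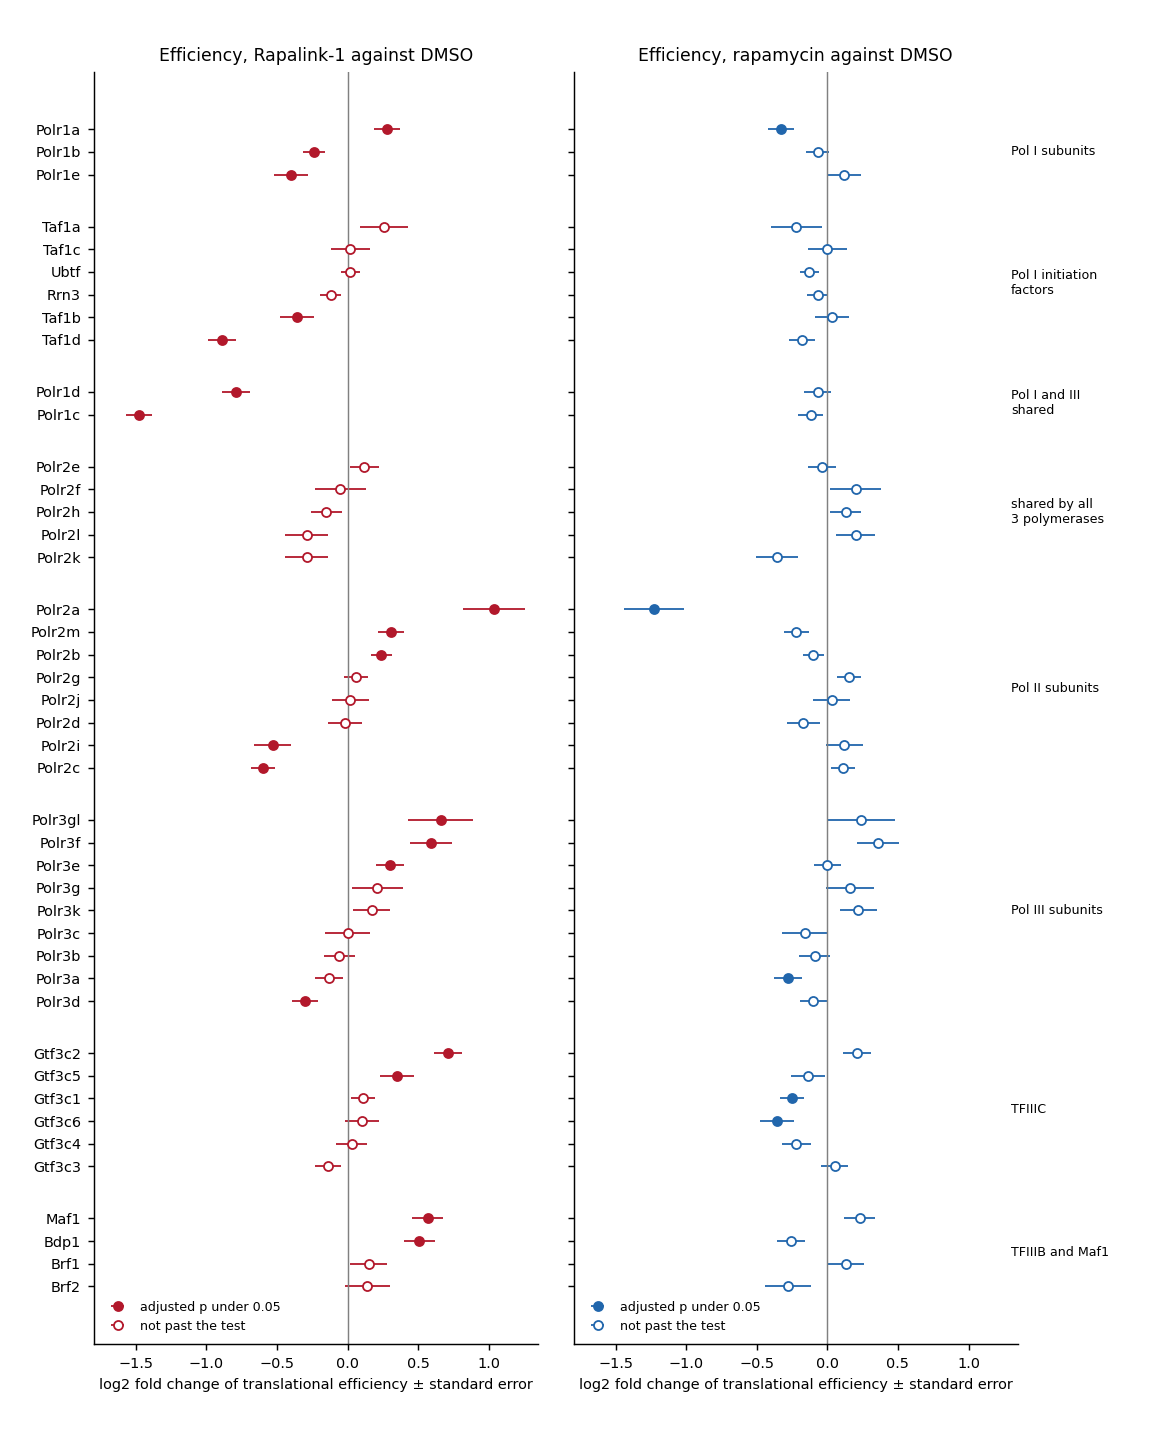
Log2 fold change of translational efficiency (x axis, bars are standard errors) for 43 of the 44 members, grouped by role and ordered within each group by the Rapalink-1 value, with Rapalink-1 against DMSO on the left and rapamycin against DMSO on the right. Filled points have an adjusted p under 0.05: 20 members with Rapalink-1, from Polr1c at -1.48 to Polr2a at 1.04, and 5 with rapamycin, all negative.

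Transcript starts are shown because mTOR-sensitive TOP mRNAs begin with C and a run of pyrimidines. They are those of the 5 members whose efficiency fell most with Rapalink-1, of Polr2a, whose efficiency rose most, and of Polr3e and Polr2m, the 2 members with the run. Each line gives 10 bases before and 20 bases from the RefSeq start (GRCm38.p6), 5′ to 3′ on the gene's strand, and capitals mark a run that begins with C at the start and goes on with 4 or more pyrimidines.
Polr1c: aagatctcgcgacattcaagattgcgggag
Taf1d: gtgtactcacgcgagatttcgtccttgtcc
Polr1d: gtgtctcggggcgacaggtgagagcctatg
Polr2c: agcaggtggcgctgcgcccgcgactagccg
Polr2i: ggatgacatcgcgcatcatagtcccagccc
Polr2a: ttctctcctcagaagcgccgagagcgcgac
Polr3e: cggccccgctCCCCCCacgtgtccggcgga
Polr2m: ctcgggcgtcCCCTCgtcctggcctgtccg
The windows lie at chr17:46248026-46248055 (minus strand, Polr1c), chr9:15306204-15306233 (plus, Taf1d), chr5:147077336-147077365 (plus, Polr1d), chr8:94857440-94857469 (plus, Polr2c) and chr7:30232064-30232093 (plus, Polr2i). The others lie at chr11:69758614-69758643 (minus, Polr2a), chr7:120917768-120917797 (plus, Polr3e) and chr9:71485964-71485993 (minus, Polr2m). None of the 5 members with the largest falls in efficiency carried the run at a start listed for it. Of 35 members with an entry in the RefSeq promoter table, 2 carried it (5.71%, 95% Wilson interval 1.58 to 18.6%, counting error only), namely Polr3e and Polr2m, and the efficiency of both rose. The share was 23.0% of 61 cytosolic ribosomal protein genes and 3.01% of all 27025 genes in the table. A match is a description of the annotated start and not of the start used in these cells.

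Both subunits shared by polymerases I and III fell in efficiency with Rapalink-1, Polr1c by the most of all 44 members. Over all genes 19.9% fell. Polr1c (chr17:46243920-46248045, minus strand) and Polr1d (chr5:147076715-147111361, plus strand) form the assembly platform of both enzymes. Polr1c had 40.6, 36.5 and 39.0 footprint CPM in the Rapalink-1 samples, 63.0, 66.3 and 62.3 in rapamycin and 68.9, 79.9 and 73.3 in DMSO. Its RNA went the other way, with 130, 127 and 125 CPM in Rapalink-1, 82.5, 77.4 and 80.5 in rapamycin and 83.3, 85.6 and 84.8 in DMSO. All Rapalink-1 footprint values of Polr1c thus lay below, and all RNA values above, those of both other groups. Its footprints changed by -0.92 ± 0.077 on the log2 scale (standard error, adjusted p = 3.7e-13), its RNA by 0.59 ± 0.058 (3e-11) and its efficiency by -1.48 ± 0.093 (8.2e-20), to 0.359 times the DMSO value. No other member combined lower footprints with higher RNA under Rapalink-1. Polr1d had 40.1, 35.7 and 36.8 footprint CPM in Rapalink-1, 62.9, 67.5 and 64.8 in rapamycin and 70.6, 79.7 and 71.8 in DMSO. Its RNA averaged 92.8 ± 3.3 CPM in Rapalink-1, 94.8 ± 4.6 in rapamycin and 102 ± 9.0 in DMSO (SD, n = 3 each), with overlapping values. Polr1d footprints changed by -0.97 ± 0.077 (adjusted p = 9.7e-14) and its efficiency by -0.79 ± 0.10 (3.2e-09).

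**Figure D2:**
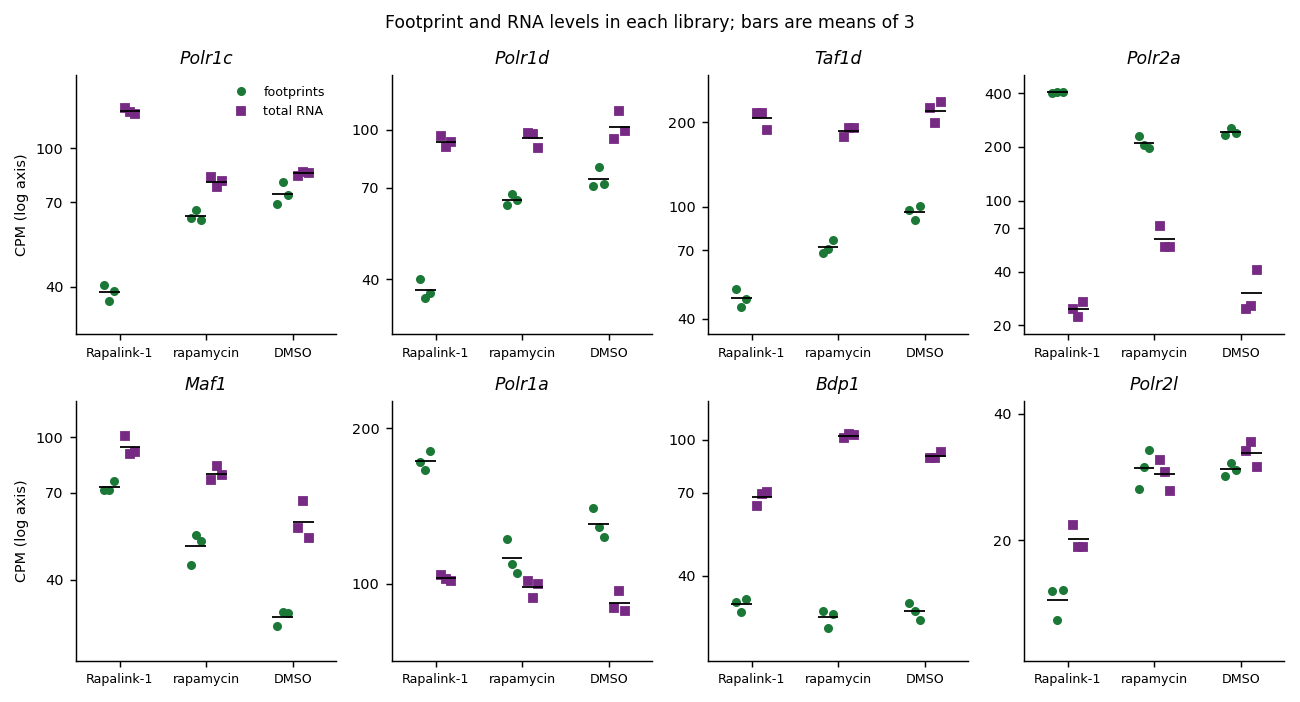
Footprint (circles) and total RNA (squares) CPM on log axes in each library for 8 members, with Rapalink-1 left, rapamycin in the middle and DMSO right. Bars are means of 3 libraries. Polr1c footprints are 36.5 to 40.6 CPM with Rapalink-1 and 68.9 to 79.9 in DMSO while its RNA is higher, and Polr2a RNA is 54.8 to 72.3 CPM with rapamycin and 24.6 to 40.9 in DMSO.

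The 3 members specific to polymerase I split. Polr1a, the largest and catalytic subunit, rose, and Polr1b, the second-largest, and Polr1e, part of the initiation-related subcomplex, fell in efficiency with Rapalink-1. Polr1a (chr6:71909053-71979435) had 172, 166 and 181 footprint CPM in Rapalink-1, 122, 109 and 105 in rapamycin and 140, 129 and 123 in DMSO. The Rapalink-1 values lay above all others, and every rapamycin value lay below every DMSO value. Footprints of Polr1a changed by 0.40 ± 0.064 with Rapalink-1 (adjusted p = 1.4e-06) and by -0.23 ± 0.065 with rapamycin (0.012). Its RNA had 104, 102 and 101 CPM in Rapalink-1, 101, 93.9 and 100 in rapamycin and 89.5, 96.5 and 88.5 in DMSO. Efficiency of Polr1a changed by 0.28 ± 0.089 with Rapalink-1 (0.0079) and by -0.33 ± 0.090 with rapamycin (0.0077). The first call was lost without Rapalink-1 replicate 3 or DMSO replicate 2 (adjusted p = 0.058 and 0.051), the second without rapamycin replicate 3 or DMSO replicate 1 (0.071 to 0.099), and the rapamycin footprint call without the same 2 (0.10 to 0.12). Polr1b had 156, 157 and 169 footprint CPM in Rapalink-1, 142, 132 and 138 in rapamycin and 190, 198 and 184 in DMSO. The 3 groups of Polr1b footprints did not overlap, with rapamycin lowest. Polr1b RNA had 193, 199 and 198 CPM in Rapalink-1, 153, 137 and 149 in rapamycin and 199, 195 and 181 in DMSO. Its efficiency changed by -0.24 ± 0.078 with Rapalink-1 (0.012), a call lost without Rapalink-1 replicate 2 (0.061) and turned to 0.13 by library totals. Polr1e had 33.3, 32.4 and 32.1 footprint CPM in Rapalink-1, 43.5, 44.8 and 47.5 in rapamycin and 43.2, 58.7 and 50.3 in DMSO. The Rapalink-1 values of Polr1e were the lowest, and the other groups overlapped. Its RNA had 40.0, 36.5 and 39.7 CPM in Rapalink-1, 34.7, 37.1 and 37.1 in rapamycin and 42.1, 44.3 and 44.7 in DMSO. Efficiency of Polr1e changed by -0.40 ± 0.12 (0.0062) and by -0.03 with library totals, and the gene shares 32 bases with Fbxo10 on the other strand.

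Of the 6 polymerase I initiation factors, 2 fell in efficiency with Rapalink-1 and none rose, where 19.9% of all genes fell and 22.3% rose. Counts by role rest on few genes, and no role group was tested. Taf1d and Taf1b are subunits of the promoter selectivity factor SL1. Taf1d (chr9:15305953-15316997) had 51.0, 44.0 and 47.0 footprint CPM in Rapalink-1, 68.4, 71.0 and 76.4 in rapamycin and 97.8, 89.7 and 101 in DMSO. The 3 groups did not overlap, with Rapalink-1 lowest and rapamycin between. Taf1d RNA had 216, 216 and 188 CPM in Rapalink-1, 177, 190 and 190 in rapamycin and 225, 198 and 236 in DMSO. Its efficiency changed by -0.89 ± 0.096 with Rapalink-1 (adjusted p = 4.6e-11) and its footprints by -1.02 ± 0.074 (6e-15). With rapamycin, Taf1d footprints changed by -0.42 ± 0.070 (2.2e-05) and RNA by -0.24 ± 0.058 (0.0022). Taf1d hosts small nucleolar RNAs in its introns. On the other strand it overlaps 4931406C07Rik by 496 bases and Cep295 by 84 bases. Whether the authors counted by strand is not given in the sources used here. Taf1b had 34.0, 34.2 and 32.3 footprint CPM in Rapalink-1, 32.3, 29.6 and 32.1 in rapamycin and 30.0, 31.0 and 31.3 in DMSO. Its RNA had 49.2, 48.4 and 44.2 CPM in Rapalink-1, 35.2, 32.1 and 31.7 in rapamycin and 36.0, 31.9 and 30.3 in DMSO. Only the RNA of Taf1b stood clearly apart, with all Rapalink-1 values above the rest, and changed by 0.52 ± 0.084 (2.4e-06). Its efficiency changed by -0.36 ± 0.12 (0.015), a call lost without Rapalink-1 replicate 1, DMSO replicate 2 or DMSO replicate 3 (0.051 to 0.067) and turned to 0.01 by library totals.

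Rrn3, the factor that recruits polymerase I to its promoter, moved little. It had 232, 218 and 233 footprint CPM in Rapalink-1, 225, 224 and 242 in rapamycin and 275, 251 and 252 in DMSO. All treated values lay below the DMSO values, and the drugs overlapped. Footprints of Rrn3 changed by -0.19 ± 0.056 with Rapalink-1 (adjusted p = 0.0045; 0.08 with library totals) and by -0.17 ± 0.055 with rapamycin (0.027), the second lost without rapamycin replicate 1, rapamycin replicate 2 or DMSO replicate 1 (0.093 to 0.17). Its RNA ranged from 260 to 283 CPM in Rapalink-1, 254 to 271 in rapamycin and 273 to 292 in DMSO. Ubtf, the upstream binding factor of ribosomal DNA, had 272, 273 and 277 footprint CPM in Rapalink-1, 243, 258 and 247 in rapamycin and 262, 256 and 265 in DMSO. Its RNA had 321, 323 and 330 CPM in Rapalink-1, 319, 314 and 328 in rapamycin and 311, 309 and 293 in DMSO. Ubtf passed no test against DMSO, with efficiency changes of 0.02 ± 0.068 for Rapalink-1 and -0.13 ± 0.068 for rapamycin. Taf1a and Taf1c, further SL1 subunits, also passed none.

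Among the 8 polymerase II genes, Rapalink-1 raised the efficiency of 3 and lowered that of 2. Over all genes 22.3% rose and 19.9% fell. Polr2a (chr11:69733997-69758633, minus strand), the largest subunit with the C-terminal repeat domain, had 402, 405 and 407 footprint CPM in Rapalink-1, 229, 206 and 197 in rapamycin and 234, 256 and 239 in DMSO. Its RNA had 24.6, 22.2 and 27.0 CPM in Rapalink-1, 72.3, 54.8 and 54.8 in rapamycin and 24.6, 25.7 and 40.9 in DMSO. The footprints were high in all Rapalink-1 samples, and the RNA was high in all rapamycin samples. One DMSO RNA sample, replicate 3, stood above the other two. Footprints of Polr2a changed by 0.74 ± 0.056 with Rapalink-1 (adjusted p = 2.8e-14), while its RNA change of -0.26 ± 0.23 did not pass (0.43). Its efficiency rose by 1.04 ± 0.22 (0.0021), and by 0.80 to 1.18 with 1 sample left out at a time. With rapamycin, Polr2a RNA rose by 1.03 ± 0.21 (0.012) and its efficiency changed by -1.23 ± 0.21 (0.0014), from -1.48 to -1.09 with 1 sample left out. The rapamycin change of its footprints was -0.20 ± 0.057 (0.010) and was lost without rapamycin replicate 3 or DMSO replicate 2 (0.079 to 0.10).

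Polr2b, the second-largest subunit, had 441, 417 and 453 footprint CPM in Rapalink-1, 299, 303 and 319 in rapamycin and 359, 346 and 310 in DMSO. Its RNA had 377, 389 and 369 CPM in Rapalink-1, 340, 321 and 321 in rapamycin and 338, 342 and 328 in DMSO. Both kinds of value were highest with Rapalink-1, where footprints changed by 0.37 ± 0.056 (adjusted p = 4.6e-07) and efficiency by 0.24 ± 0.073 (0.0058; 0.060 without Rapalink-1 replicate 3). Polr2m, which encodes the polymerase II-associated protein Gdown1, had 76.8, 88.3 and 76.6 footprint CPM in Rapalink-1, 60.2, 75.9 and 74.6 in rapamycin and 89.1, 86.2 and 79.2 in DMSO. Its RNA had 283, 281 and 284 CPM in Rapalink-1, 346, 351 and 347 in rapamycin and 340, 368 and 375 in DMSO. The RNA of Polr2m was lowest with Rapalink-1 (-0.35 ± 0.045, adjusted p = 2.8e-08), and its efficiency changed by 0.31 ± 0.091 (0.0040; 0.058 without Rapalink-1 replicate 2).

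Polr2c and Polr2i fell in footprints with Rapalink-1, with RNA changes of 0.00 and -0.08 that did not pass. Polr2c, a partner in the assembly platform of polymerase II, had 97.2, 95.1 and 88.5 footprint CPM in Rapalink-1, 140, 143 and 135 in rapamycin and 140, 141 and 157 in DMSO. Its RNA had 146, 137 and 153 CPM in Rapalink-1, 122, 126 and 138 in rapamycin and 143, 151 and 142 in DMSO. The Rapalink-1 footprints of Polr2c lay below all others, and its efficiency changed by -0.60 ± 0.086 (adjusted p = 7.5e-08). Polr2i, a small subunit at the edge of the enzyme, had 25.1, 25.2 and 24.2 footprint CPM in Rapalink-1, 38.3, 41.1 and 38.6 in rapamycin and 35.1, 39.8 and 42.3 in DMSO. Its RNA had 38.2, 31.8 and 38.6 CPM in Rapalink-1, 38.4, 34.6 and 34.2 in rapamycin and 38.2, 42.8 and 32.6 in DMSO. Efficiency of Polr2i changed by -0.53 ± 0.13 (0.0012), and by -0.16 with library totals, where the call was lost (0.31). The gene overlaps Tbcb on the other strand by 124 bases. The stalk subunit Polr2d fell in RNA (-0.41 ± 0.083, 0.00010) and in footprints (-0.46 ± 0.084, 1.2e-05), so that its efficiency was near 0 (-0.02 ± 0.12). Polr2j passed in RNA (-0.21 ± 0.075, 0.027) and in footprints (-0.23 ± 0.096, 0.042; 0.04 with library totals). The RNA call of Polr2j was lost without Rapalink-1 replicate 2 or DMSO replicate 3 (0.11 to 0.23), and the footprint call without those or Rapalink-1 replicate 3 (0.055 to 0.42). Polr2g, the other stalk subunit, passed no test with either drug.

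No efficiency call against DMSO was made among the 5 subunits shared by all 3 polymerases (Polr2e, Polr2f, Polr2h, Polr2k, Polr2l). With Rapalink-1, 3 of them fell in footprints and 2 in RNA, where 28% and 18.8% of all genes fell. Polr2l had 15.1, 12.9 and 15.2 footprint CPM in Rapalink-1, 26.5, 29.9 and 32.8 in rapamycin and 28.4, 30.5 and 29.4 in DMSO. Its RNA had 21.7, 19.2 and 19.3 CPM in Rapalink-1, 31.0, 29.0 and 26.1 in rapamycin and 32.6, 34.3 and 29.8 in DMSO. Both kinds of value were lowest in all Rapalink-1 samples. Footprints of Polr2l changed by -1.02 ± 0.11 (adjusted p = 5.5e-10), RNA by -0.69 ± 0.099 (2.7e-07) and efficiency by -0.29 ± 0.15, which did not pass (0.12). Footprints of Polr2k changed by -0.34 ± 0.072 (0.00020) and those of Polr2h by -0.35 ± 0.088 (0.0012), and both calls were lost with library totals (-0.07 and -0.08). The RNA call of Polr2e (-0.19 ± 0.074, 0.034) was lost when either of 2 Rapalink-1 samples (replicates 1 and 2) or 2 DMSO samples (replicates 2 and 3) was left out (0.068 to 0.18). Polr2k RNA rose with rapamycin (0.46 ± 0.096, 0.0027). Polr2k overlaps Spag1 by 784 bases.

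The 10 members specific to polymerase III gave 3 higher and 1 lower efficiency with Rapalink-1, against 22.3 and 19.9% of all genes. Their RNA gave 3 higher and 4 lower, against 19.4 and 18.8% of all genes. Polr3f, a subunit of the initiation subcomplex, had 27.0, 26.4 and 25.9 footprint CPM in Rapalink-1, 25.9, 21.3 and 26.4 in rapamycin and 28.3, 22.8 and 23.7 in DMSO. Its RNA had 18.2, 17.8 and 19.0 CPM in Rapalink-1, 18.5, 19.9 and 20.3 in rapamycin and 25.1, 24.1 and 28.2 in DMSO. The footprints overlapped, and the RNA was lower in both drugs. Polr3f RNA changed by -0.48 ± 0.11 with Rapalink-1 (adjusted p = 0.00027) and by -0.39 ± 0.11 with rapamycin (0.0051), and its efficiency with Rapalink-1 by 0.59 ± 0.15 (0.0011). Polr3g and Polr3gl are paralogs that take the same place in the enzyme. Polr3g had 12.3, 14.2 and 12.4 footprint CPM in Rapalink-1, 16.2, 17.5 and 20.8 in rapamycin and 17.0, 17.0 and 19.7 in DMSO. Its RNA had 16.9, 14.2 and 13.9 CPM in Rapalink-1, 18.7, 21.3 and 24.3 in rapamycin and 22.1, 22.6 and 26.6 in DMSO. Polr3gl had 8.87, 7.97 and 9.75 footprint CPM in Rapalink-1, 5.58, 7.89 and 7.81 in rapamycin and 4.30, 6.73 and 4.72 in DMSO. The paralogs moved in opposite directions in footprints with Rapalink-1, Polr3g lowest and Polr3gl highest there. Polr3g changed by -0.47 ± 0.13 in footprints (0.0025; -0.20 with library totals, call lost) and by -0.64 ± 0.12 in RNA (2.4e-05). Polr3gl changed by 0.80 ± 0.20 in footprints (0.00087) and by 0.66 ± 0.23 in efficiency (0.019), the second lost without Rapalink-1 replicate 3 or DMSO replicate 1 (0.078 to 0.12). Its RNA had 16.9, 15.4 and 13.2 CPM in Rapalink-1, 14.6, 16.1 and 16.8 in rapamycin and 12.2, 15.1 and 12.7 in DMSO, which overlapped.

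Of the catalytic pair of polymerase III, Polr3b moved with Rapalink-1 and Polr3a with rapamycin. Polr3a, the largest subunit, had 75.5, 71.0 and 69.8 footprint CPM in Rapalink-1, 61.1, 58.4 and 65.3 in rapamycin and 82.1, 77.2 and 79.3 in DMSO. The groups did not overlap, with rapamycin lowest (-0.37 ± 0.069, adjusted p = 0.00012); the Rapalink-1 change of -0.14 ± 0.069 did not pass (0.080). Polr3a RNA had 51.3, 58.9 and 54.7 CPM in Rapalink-1, 53.6, 49.5 and 48.6 in rapamycin and 52.9, 51.7 and 56.8 in DMSO. Its efficiency call with rapamycin (-0.28 ± 0.10, 0.047) was lost without rapamycin replicates 1 or 2 or DMSO replicates 1 or 2 (0.10 to 0.20). Polr3b, the second-largest subunit, had 88.1, 85.3 and 85.2 footprint CPM in Rapalink-1, 68.6, 62.8 and 72.4 in rapamycin and 67.3, 78.5 and 61.4 in DMSO. Its RNA had 73.5, 82.9 and 80.2 CPM in Rapalink-1, 64.4, 59.3 and 62.5 in rapamycin and 65.6, 54.7 and 55.1 in DMSO. Both were highest with Rapalink-1, by 0.33 ± 0.076 in footprints (0.00034) and 0.43 ± 0.071 in RNA (4.2e-06), with an efficiency change of -0.06 ± 0.11. Polr3d had 58.0, 58.4 and 62.2 footprint CPM in Rapalink-1, 54.6, 61.2 and 58.8 in rapamycin and 60.9, 64.3 and 74.1 in DMSO. Its RNA had 122, 123 and 121 CPM in Rapalink-1, 104, 103 and 98.6 in rapamycin and 105, 112 and 105 in DMSO. The RNA was highest with Rapalink-1 and the footprints overlapped. Efficiency of Polr3d changed by -0.30 ± 0.094 (0.0086), a call lost without DMSO replicate 3 (0.11) and turned to 0.07 by library totals. The efficiency of Polr3e, its partner in termination, changed by 0.30 ± 0.097 (0.010; 0.13 without Rapalink-1 replicate 1) beside an RNA change of -0.26 ± 0.061 (0.00058). The RNA call of Polr3k with Rapalink-1 (-0.22 ± 0.080, 0.027) was lost without Rapalink-1 replicates 2 or 3 or DMSO replicates 1 or 2 (0.055 to 0.21). Polr3c passed no test with either drug.

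TFIIIC, the factor that recognises the internal promoters of transfer RNA genes, had 2 higher and no lower efficiency among 6 subunits with Rapalink-1. Over all genes 22.3% were higher and 19.9% lower. Gtf3c2 had 81.0, 69.4 and 78.7 footprint CPM in Rapalink-1, 69.6, 66.4 and 72.7 in rapamycin and 62.1, 67.8 and 58.6 in DMSO. Its RNA had 59.0, 62.8 and 54.8 CPM in Rapalink-1, 69.8, 80.1 and 70.0 in rapamycin and 72.8, 77.0 and 79.8 in DMSO. Footprints were higher and RNA lower with Rapalink-1 than in DMSO without overlap, and efficiency rose by 0.71 ± 0.10 (adjusted p = 1.5e-07). The counts of Gtf3c2 are uncertain, since the row Gm29609 stayed within -2.3 and 7.3% of them in all 18 libraries. Gtf3c5 had 79.7, 83.8 and 70.8 footprint CPM in Rapalink-1, 53.8, 64.7 and 63.5 in rapamycin and 57.5, 62.4 and 62.2 in DMSO. Its RNA had 26.3, 27.1 and 32.4 CPM in Rapalink-1, 30.2, 31.9 and 28.7 in rapamycin and 27.8, 28.5 and 25.8 in DMSO. Footprints of Gtf3c5 were highest with Rapalink-1 (0.37 ± 0.078, 0.00012), and its efficiency changed by 0.35 ± 0.12 (0.018), a call lost without Rapalink-1 replicate 1, Rapalink-1 replicate 2 or DMSO replicate 1 (0.088 to 0.13). Gtf3c1, the largest subunit, had 154, 148 and 148 footprint CPM in Rapalink-1, 114, 111 and 116 in rapamycin and 122, 126 and 115 in DMSO. Its RNA had 137, 132 and 124 CPM in Rapalink-1, 124, 118 and 131 in rapamycin and 108, 118 and 105 in DMSO. Gtf3c1 was highest with Rapalink-1 in footprints (0.31 ± 0.059, 2.4e-05), and its RNA also rose (0.25 ± 0.060, 0.00095; 0.11 with library totals, call lost). Gtf3c6 had 40.2, 37.6 and 36.8 footprint CPM in Rapalink-1, 36.4, 42.1 and 37.6 in rapamycin and 43.4, 42.0 and 44.1 in DMSO. Its RNA had 27.3, 29.7 and 27.7 CPM in Rapalink-1, 39.9, 36.4 and 38.6 in rapamycin and 34.4, 31.1 and 34.2 in DMSO. The RNA of Gtf3c6 was lowest with Rapalink-1 and highest with rapamycin, without overlap. Its Rapalink-1 RNA call (-0.23 ± 0.088, 0.034) was lost without Rapalink-1 replicates 1 or 3 or DMSO replicates 1 or 3 (0.078 to 0.13). Gtf3c4 fell in footprints (-0.31 ± 0.080, 0.0014) and RNA (-0.29 ± 0.066, 0.00035), and Gtf3c3 rose in RNA (0.28 ± 0.062, 0.00033); the footprint call of Gtf3c4 and the RNA call of Gtf3c3 were lost with library totals (-0.04 and 0.14).

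The group of TFIIIB and Maf1 held the largest footprint rise of the machinery. Maf1 (chr15:76351294-76354378), the repressor of polymerase III, had 71.4, 71.0 and 75.5 footprint CPM in Rapalink-1, 44.0, 53.4 and 51.3 in rapamycin and 29.7, 32.4 and 32.3 in DMSO. Its RNA had 101, 89.9 and 90.7 CPM in Rapalink-1, 75.7, 83.3 and 78.3 in rapamycin and 55.7, 66.2 and 52.4 in DMSO. In both assays the 3 groups did not overlap, with Rapalink-1 highest and DMSO lowest. Footprints of Maf1 rose by 1.21 ± 0.083 with Rapalink-1 (adjusted p = 1e-15) and by 0.66 ± 0.084 with rapamycin (1.7e-07), which is 2.32 and 1.58 times the DMSO value. Its RNA rose by 0.68 ± 0.071 (2.1e-10) and 0.44 ± 0.072 (9.4e-06). Efficiency of Maf1 rose with Rapalink-1 (0.57 ± 0.11, 3.9e-05), and with rapamycin its change of 0.23 ± 0.11 did not pass (0.19). Bdp1, a TFIIIB subunit (chr13:100017994-100104090), had 33.5, 31.3 and 34.3 footprint CPM in Rapalink-1, 31.5, 28.2 and 30.9 in rapamycin and 33.3, 31.5 and 29.7 in DMSO. Its RNA had 63.8, 69.6 and 70.2 CPM in Rapalink-1, 101, 104 and 103 in rapamycin and 88.6, 88.3 and 92.2 in DMSO. Footprints of Bdp1 overlapped throughout, while its RNA was lowest with Rapalink-1 (-0.40 ± 0.061, 9.7e-07) and highest with rapamycin (0.20 ± 0.060, 0.011). Its efficiency rose by 0.51 ± 0.11 with Rapalink-1 (8.4e-05). Brf1, the TFIIIB subunit for transfer RNA genes, had 25.2, 25.6 and 21.5 footprint CPM in Rapalink-1, 22.7, 26.5 and 23.3 in rapamycin and 20.7, 20.5 and 24.1 in DMSO. Its RNA ranged from 52.2 to 54.5 CPM in Rapalink-1, 48.5 to 55.4 in rapamycin and 48.3 to 56.0 in DMSO. All groups overlapped, and neither Brf1 nor Brf2, the subunit for U6-type promoters, passed a test against DMSO. Brf1 shares its locus with Btbd6.

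**Figure D3:**
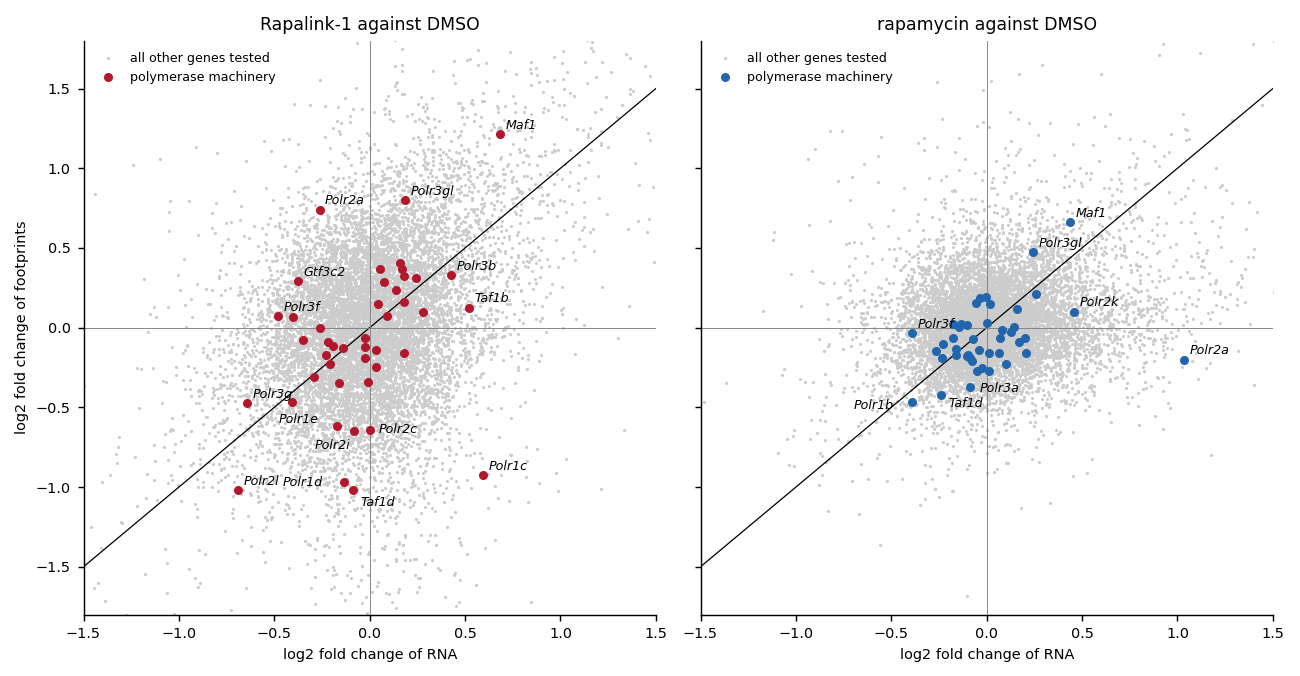
Log2 fold change of footprints (y axis) against that of RNA (x axis) for the 44 members (coloured) and all other genes tested for efficiency (grey, those beyond the axes not shown), with Rapalink-1 against DMSO on the left and rapamycin against DMSO on the right; on the diagonal efficiency does not change. With Rapalink-1, Polr1c sits at RNA 0.59 and footprints -0.92 and Maf1 at 0.68 and 1.21. With rapamycin, Polr2a sits at RNA 1.03 and footprints -0.20.

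Rapamycin changed fewer members. Its efficiency calls were 0 higher and 5 lower, where 6.52% of all genes rose and 9.85% fell. Those 5 were Polr2a, Polr1a, Polr3a, Gtf3c6 (-0.36 ± 0.12, adjusted p = 0.025) and Gtf3c1 (-0.25 ± 0.085, 0.030). At 11.4% of members, the falls were near the background. Library totals gave 2 lower, leaving out 1 sample at a time gave 1 to 8 lower, and the Gtf3c6 call was lost without rapamycin replicates 1 or 3 or DMSO replicates 1 or 2 (0.053 to 0.15). The Gtf3c1 call was lost without rapamycin replicates 1 or 3 or DMSO replicate 1 (0.073 to 0.12). Footprints rose for 1 member (Maf1) and fell for 9, against 8.75 and 9.4% of all genes, so the falls were 20.5% of members. That count was 5 to 10 with 1 sample left out and 4 with library totals. The 9 were Polr1b (-0.47 ± 0.057, 6.7e-08), Taf1d, Polr3a, Polr2m (-0.28 ± 0.078, 0.011), Polr1a, Polr1c (-0.21 ± 0.072, 0.039), Polr2a, Gtf3c3 (-0.19 ± 0.068, 0.044) and Rrn3. The calls for Polr1b, Taf1d and Polr3a held with any sample left out. That for Polr2m was lost without rapamycin or DMSO replicate 1 (0.075 to 0.15). The Polr1c call was lost without rapamycin replicates 1 or 3 or DMSO replicates 2 or 3 (0.065 to 0.20), and the Gtf3c3 call without rapamycin or DMSO replicates 1 or 2 (0.063 to 0.23). RNA rose for 6 and fell for 7, against 13.6 and 10.5% of all genes, which is 13.6 and 15.9% of members. Among the rises were Polr2a, Polr2k, Maf1 and Bdp1, and that of Gtf3c1 (0.17 ± 0.060, 0.033) was lost without rapamycin or DMSO replicates 1 or 3 (0.076 to 0.20). RNA fell for Polr1b (-0.39 ± 0.053, 2.1e-07), Polr3f and Taf1d, and also for Polr1e, Polr2h, Gtf3c3 and Polr2c. The last 4 were lost with 1 sample left out (0.052 to 0.13): Polr1e without rapamycin replicate 1, Polr2h without replicate 2 of either group, Gtf3c3 without DMSO replicate 1, and Polr2c without rapamycin replicates 1 or 2 or DMSO replicate 2. The names of the rapamycin footprint libraries lack a suffix that the other footprint libraries carry, its meaning is not given, and it cannot be told apart from the treatment. With rapamycin 25 members passed no test, and with Rapalink-1 9 passed none. The share of all genes that passed none was not counted, so these counts are not read as a trait of the members. In efficiency alone, 16.4% of all genes were called with rapamycin and 42.2% with Rapalink-1.

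**Figure D4:**
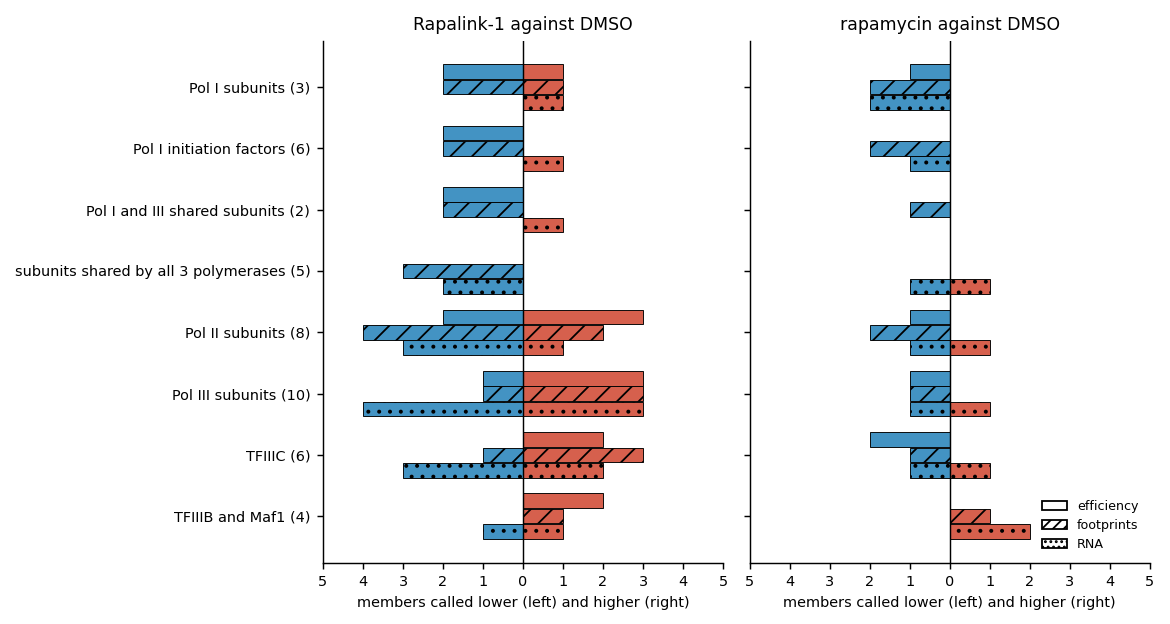
Number of members called lower (blue, to the left) and higher (red, to the right) at an adjusted p under 0.05 in efficiency (plain), footprints (hatched) and RNA (dotted), by role with the number of members in brackets, for Rapalink-1 against DMSO on the left and rapamycin against DMSO on the right. With Rapalink-1 both subunits shared by polymerases I and III are lower in efficiency, and no member of TFIIIC or of the TFIIIB and Maf1 group is. Of all genes 19.9% were lower, and no role group was tested.

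The drugs were also compared directly, at 50 nM Rapalink-1 and 5 nM rapamycin, so that compound and dose cannot be told apart. Efficiency was higher with Rapalink-1 than with rapamycin for 15 members and lower for 9, where 26.1% of all genes were higher and 23.9% lower. The higher ones are 34.1% of members and the lower ones 20.5%, and the members' median difference was 0.11 against 0.04 over all genes. With library totals the split was 29 higher and 5 lower. Polr2a differed most (2.27 ± 0.21, adjusted p = 8.5e-07), followed by Polr1c (-1.35 ± 0.092, 2.4e-18). Bdp1 was higher with Rapalink-1 (0.77 ± 0.10, 1.1e-08), as were Polr1a (0.61 ± 0.088, 6.4e-08) and Polr2m (0.53 ± 0.090, 2.1e-06). Polr1d (-0.72 ± 0.099, 2.2e-08), Taf1d (-0.71 ± 0.096, 1.3e-08) and Polr2c (-0.71 ± 0.086, 5.6e-10) were lower. Lower too were 2 subunits shared by all 3 polymerases. Polr2l (-0.49 ± 0.15, 0.0051) lost the call without rapamycin replicate 3 (0.082) and with library totals (-0.16). Polr2h (-0.28 ± 0.11, 0.04) lost it without Rapalink-1 replicates 2 or 3 or any 1 rapamycin replicate (0.054 to 0.14) and stood at 0.05 with library totals. In TFIIIC, 5 of 6 subunits were higher (Gtf3c1, Gtf3c2, Gtf3c4, Gtf3c5 and Gtf3c6, by 0.25 to 0.50), among which the Gtf3c4 call was lost without Rapalink-1 replicates 2 or 3 or rapamycin replicates 1 or 2 (0.066 to 0.27). Maf1 was higher by 0.35 ± 0.11 (0.0052). Polr3f, whose efficiency passed against DMSO with Rapalink-1, did not pass directly (0.24 ± 0.15, 0.19), nor did Polr3gl (0.42 ± 0.22, 0.10), Polr1b (-0.17 ± 0.079, 0.075) or Polr3d (-0.20 ± 0.093, 0.075).

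A MYC-type E-box (CACGTG, its own reverse complement, searched on both strands) was found within 250 bases before to 50 after an annotated start in 6 of 35 members, or 17.1% (Wilson 8.1 to 32.7%), against 8.09% of all genes in the promoter table. The 6 were Gtf3c6, Polr2h, Polr3c, Polr3e, Polr3gl and Rrn3. The stretch from 60 to 31 bases before the Rrn3 start is shown because Rrn3 is the member through which growth signals are known to reach polymerase I; capitals mark the box (GRCm38.p6, chr16:13780639-13780668, plus strand).
Rrn3: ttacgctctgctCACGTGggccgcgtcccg
With Rapalink-1, efficiency rose for Polr3e and Polr3gl and did not pass for the other 4.

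Genes outside the naming rule that belong to the machinery or work with it were listed by function. Among them were the polymerase subunits Cd3eap, Twistnb, Znrd1 and Crcp, which carry other symbols and so are not members. Efficiency counts of these lists with Rapalink-1 are read against 22.3% of all genes higher and 19.9% lower. Of 12 tested polymerase I and III genes, efficiency rose for 3 and fell for none, with a median of 0.10. They were Tbp, the TATA-binding protein shared by all polymerases (0.67 ± 0.17, adjusted p = 0.0013), and the small nuclear RNA factors Snapc4 (0.59 ± 0.15, 0.0015) and Snapc5 (0.61 ± 0.18, 0.0041). Of 17 general transcription factors of polymerase II, 6 rose and 1 fell, with Gtf2a1 highest (0.83 ± 0.17, 6.5e-05). The fall was Gtf2e2 (-0.34 ± 0.080, 0.00044), which stood at 0.02 with library totals. The 6 rises became 3 without Rapalink-1 replicate 2 or replicate 3, where Gtf2f1, Gtf2f2 and Gtf2h2 were lost (0.056 to 0.12). They became 4 without Rapalink-1 replicate 1 or DMSO replicate 1. Of 14 pausing and elongation genes, 4 rose and 2 fell. The kinase gene Cdk12, which phosphorylates the C-terminal domain of Polr2a, rose by 0.92 ± 0.11 (9e-10), and the elongation factor gene Tcea1 fell (-0.61 ± 0.080, 8.9e-09). The other fall, Supt4a, was lost without Rapalink-1 replicate 3, DMSO replicate 1 or DMSO replicate 3 (0.053 to 0.11), and of the rises Hexim1 was lost without Rapalink-1 replicate 1 or DMSO replicate 2 (0.056 to 0.076). With library totals the splits were 7 higher and 0 lower of 12, 14 and 0 of 17, and 10 and 1 of 14.

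In footprints with Rapalink-1, the same 3 lists gave 1 higher and 4 lower of 12, 2 and 4 of 17, and 4 and 5 of 14, where 25.7% of all genes were higher and 28% lower. These footprint calls depend on the scaling. Among the 12, the falls of Snapc2 (-0.09), Snapc3 (-0.1) and Znrd1 (-0.03) were lost with library totals. Among the 17, those of Gtf2a2 (-0.09), Gtf2e1 (-0.07) and Gtf2f2 (-0.02) were lost too. In RNA the 3 lists gave 1 higher and 5 lower of 12, 3 and 4 of 17, and 5 and 3 of 14. Over all genes 19.4% were higher and 18.8% lower. The rise among the 12, Ttf1, was lost with library totals (0.12) and without Rapalink-1 replicates 1 or 3 or DMSO replicates 2 or 3 (0.058 to 0.23). Of the falls, Snapc5 was lost without replicates 1 or 2 of either group (0.065 to 0.14). Znrd1 was lost without replicate 2 of either (0.064 to 0.13). Among the 17, the rise of Gtf2h1 was lost without any 1 Rapalink-1 replicate or DMSO replicate 2 (0.052 to 0.16). With rapamycin the efficiency counts were 1 higher and 0 lower of 12, 3 and 0 of 17, and 0 and 2 of 14, against 6.52 and 9.85% of all genes. The 1 of 12, Snapc2, was lost without rapamycin replicates 1 or 3 or DMSO replicate 1 (0.075 to 0.12). Of the 3 of 17, Gtf2h4 was lost without rapamycin replicates 1 or 2 or any 1 DMSO replicate (0.058 to 0.13), and Gtf2h2 without rapamycin replicates 1 or 3 or DMSO replicate 3 (0.081 to 0.12). Ccnk, the cyclin partner of Cdk12, was 1 of the 2 falls among 14, with an efficiency change of -1.04 ± 0.19 (6.9e-05) beside an RNA rise of 0.71 ± 0.19 (0.0047; 0.088 without DMSO replicate 1).

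In the authors' deposited table of translational efficiency with Rapalink-1, 11 members were higher and 9 lower, and all 20 calls made here were called there with the same sign. In the authors' deposited table for rapamycin efficiency, 0 were higher and 5 lower, again with all 5 shared. No member was called with opposite signs in any of the authors' 6 tables.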

How the data were processed

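Ribosome footprints and total RNA of GTML cells were sequenced, each lysate giving a small RNA aliquot, and libraries were prepared with an ARTseq kit, per the labels. Reads were mapped to GRCm38, per the submitters' processing notes; for aligner, counter, annotation release and strand setting the sources used here give nothing. The deposited counts are raw whole-number reads per transcript as deposited by the authors. In the deposited comparison tables the signal values (baseMean), log2 fold changes and their errors, score values (stat) and p-value columns are the authors' own.

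Of 27382 transcript rows, 6378 were 0 everywhere; rows of equal counts or 1 gene were merged into 15307 features, keeping the row with most reads. Genes passing filterByExpr (minimum count 10, total 15) entered edgeR 4.0.16 (R 4.3.3) quasi-likelihood fits with TMM factors: 11281 for footprints, 11271 for RNA and 10988 for efficiency, the assay by treatment interaction over 18 libraries. CPM are TMM-scaled. P-values were adjusted by Benjamini-Hochberg over all genes and called under 0.05. The biological coefficient of variation was 5.72 to 6.38%. Each standard error follows from a gene's log2 change and F value. The fits recovered known changes in simulated counts where few genes changed, as many up as down. Many more genes changed in the real data, so the simulation does not test the scaling. Alternatives were DESeq2 1.42.0, other scalings, no filter, replicate blocks and left-out samples. Per-library values are given for the members with the largest called changes and for main subunits and factors, by a rule; some items are not reported here. The members, the lists and this rule were chosen with earlier results of these data known. Replicate pairs differed beyond sampling noise (chi-square per degree of freedom 1.98 to 10.12).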

Additional observations from a re-analysis of the deposited data

How the results depend on the processing

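Of 120 calls on members over 7 comparisons, 68 passed under every alternative run; 30 were lost or reversed with library totals, 38 with some sample left out, 10 with DESeq2 and 4 with the replicate block. With library totals, efficiency calls for Rapalink-1 were 4 lower and 31 higher, footprints 8 and 23, RNA 21 and 4, and rapamycin calls 2 lower in efficiency and 4 lower and 2 higher in footprints; Rapalink-1 against rapamycin gave 5 lower and 29 higher. Rapamycin efficiency calls numbered 3 lower with only the compared treatments fitted. Higher rapamycin footprint calls numbered 2 without the filter and 2 with the replicate block. Leaving out 1 sample gave 1 to 8 lower and 0 to 1 higher rapamycin efficiency calls, and 5 to 10 lower and 1 to 3 higher footprint calls. The start run within 4 bases of the start was found in 20.0% of members, 45.9% of ribosomal protein genes and 16.4% of all genes. The cause of these changes was not tested.

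Sign changes of values called neither in the main fit nor in the alternative are left out here. The values that remain changed sign with library totals. For efficiency with Rapalink-1 against DMSO they became Gtf3c3 0.22, Polr1b 0.13, Polr2d 0.35, Polr3a 0.23, Polr3b 0.31, Polr3c 0.36, Polr3d 0.07, Rrn3 0.25 and Taf1b 0.01. For footprints they became Polr1b 0.03, Polr2g 0.15, Polr2j 0.04, Polr2m 0.19, Polr3c 0.20, Polr3e 0.27 and Rrn3 0.08, and for RNA Polr2c -0.14. For efficiency with Rapalink-1 against rapamycin they became Polr2g 0.23, Polr2h 0.05, Polr2j 0.31 and Rrn3 0.27. The all-gene median moved with them, to 0.43 and 0.37 in efficiency for Rapalink-1 against DMSO and against rapamycin.

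To see whether replicate numbers pair samples, the deviations of each library from its group mean (log2 CPM) were correlated over genes. For equal replicate numbers these deviations correlated by -0.17 to 0.04 in RNA, -0.18 to 0.23 in footprints and -0.09 to 0.20 between assays. The numbers are thus not shown to pair treatments. RNA came from an aliquot of each lysate, per the labels, which do not say that equal numbers mark 1 lysate. In DMSO, the deviations of footprints and RNA of equal number correlated by 0.16 to 0.20, against -0.17 to -0.01 for other numbers. Deviations within a group cancel out, so the values for other numbers partly follow from those for equal numbers. The replicate block by dish, which pairs them, gave 9 lower and 11 higher Rapalink-1 efficiency calls and ended those of Polr3a (rapamycin, adjusted p = 0.056) and Ubtf (Rapalink-1 against rapamycin, 0.051). The replicate block ended the calls of Gtf3c1 (RNA, rapamycin, adjusted p = 0.051), Polr3a (efficiency, rapamycin, 0.057), and Gtf3c4 and Ubtf (efficiency, Rapalink-1 against rapamycin, 0.052 and 0.060). Polr3gl rests on the fewest footprint reads, 45 to 110 per library. The alternatives for genes outside the naming rule were added after the data were seen.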

Other observations

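Of 12 genes for the assembly and nuclear import of the polymerases, 5 were lower and 1 higher in efficiency with Rapalink-1, where 19.9% of all genes were lower and 22.3% higher. The median of the 12 was -0.22, against 0.06 over all genes. These directions depend on the scaling: with library totals none of the 12 was lower and 5 were higher, with a median of 0.15 where that of all genes was 0.43. Ruvbl2, an ATPase of the chaperone complex that assembles polymerases, changed by -0.40 ± 0.090 (adjusted p = 0.00038; -0.03 with library totals) beside an RNA change of 0.25 ± 0.059 (0.0010; 0.11 with library totals, call lost). Its partner Rpap3 changed by -0.33 ± 0.092 in efficiency (0.0028; 0.03 with library totals) and by 0.35 ± 0.057 in RNA (2.2e-06). Gpn1, a GTPase of polymerase II import (-0.34 ± 0.11, 0.012), Rpap2 (-0.39 ± 0.15, 0.025) and Slc7a6os (-0.27 ± 0.11, 0.034) were the other falls, and Rprd1b was the rise (0.39, 0.027). The Gpn1 call was lost without replicate 3 of Rapalink-1 or replicate 1 of DMSO (0.05 to 0.1), and the Rpap2 call without those or Rapalink-1 replicate 1 (0.063 to 0.16). The Slc7a6os call was lost without any 1 Rapalink-1 replicate or DMSO replicates 1 or 2 (0.06 to 0.085), and the Rprd1b call without Rapalink-1 replicates 2 or 3 or DMSO replicates 1 or 2 (0.053 to 0.14), so that 2 to 6 were lower with 1 sample left out. In footprints 2 of the 12 rose and 4 fell, against 25.7 and 28% of all genes, and in RNA 5 rose and 1 fell, against 19.4 and 18.8%. With rapamycin none of the 12 passed in efficiency (edgeR, adjusted p under 0.05), and their median was 0.12.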
